A study of Homo sapiens with 6 samples.

Results

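RNA levels of 53 genes of DNA replication and of the passage from G1 into S phase were examined in A2058, an established human line from a metastatic melanoma. RNA-seq counts came from 3 wells treated with 100 µM vitamin C for 48 h and from 3 control wells kept without it. The members were taken by gene symbol from a fixed list, with no threshold on measured values. Each of the 53 symbols matched 1 Ensembl gene id of the 60675 in the count table, and all 53 passed the filter on low counts, as did 16353 genes in all. Vitamin C was absent from the medium itself, and fresh medium was given daily. All wells held the same cell line, so the spread between them is that of wells and not of donors or lines. The label of each treated well gives 100 µM, while a treatment note shared by all wells names sodium ascorbate at 50 µM.

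Replication starts at origins, where the origin recognition complex, CDC6 and CDT1 load the MCM2-7 helicase in G1. Cyclin E with CDK2, and CDC7, then help to turn the loaded helicase into an active one with CDC45 and the GINS complex, and the polymerases, the PCNA clamp and the enzymes of nucleotide supply follow. Most of these genes are transcribed in waves by E2F factors, which the retinoblastoma protein restrains until cyclin-dependent kinases phosphorylate it. In melanoma this axis is often altered upstream of E2F, at CDKN2A, CDK4 or CCND1. RNA of such genes is widely read as a sign of how many cells of a population are cycling, although in bulk RNA the number of cells in S phase and the RNA per cell cannot be told apart.

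The deposited counts summed to 25672689, 32549362 and 20944956 in vitamin C wells 1, 2 and 3, and to 41884588, 26996891 and 16248869 in control wells 1, 2 and 3. Between 89493 and 235673 of these counts per library fell in the members. Levels below are CPM, that is counts scaled to a common library size, after scaling by TMM, whose factors ran from 0.996 to 1.01. In vitamin C well 3 the small RNA 7SK took 0.945% of counts, against 0.577% to 0.748% in the other libraries, and results are therefore also given without that well where it matters. Mitochondrial genes took 0.476% to 0.573% of counts in vitamin C wells and 0.612% to 0.744% in control wells, without overlap, and their part in the results was not tested, while the 4 member calls held with these genes removed before scaling. The 8 melanocyte markers were all measured, with SOX10 at 91.7 to 116 CPM with vitamin C and 99.7 to 104 CPM in control. Of the 8, MLANA, PMEL and TYR rose and DCT fell, with log2 fold changes of 3.38, 0.73, 0.29 and -0.30, and the list summed to 2368 to 2471 CPM with vitamin C and 2537 to 2650 CPM in control. The blood markers CD3E, HBB and LST1 and the epithelial markers EPCAM and KRT5 lay at or below 0.168 CPM in all wells. Of the 4 fibroblast markers, PDGFRB and LUM were called higher with vitamin C, and the list summed to 90.6 to 104.9 CPM with vitamin C and 52.4 to 57.9 CPM in control. Of the 3 endothelial markers, PECAM1 was called higher, and the list summed to 4.07 to 4.30 CPM with vitamin C and 1.53 to 1.58 CPM in control. CDH5 of the endothelial list lay at or below 0.239 CPM and COL1A1 of the fibroblast list at or below 0.626 CPM in all wells. All vitamin C wells were above all control wells for 3 of the 4 fibroblast and 2 of the 3 endothelial markers. Over all genes tested, the groups did not overlap, in either direction, for 30.6%. The part of these markers in the levels of the replication genes was not tested.

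Most replication genes lay near their control levels after vitamin C. By edgeR's quasi-likelihood test, adjusted over all genes tested, 1 member rose (GINS1), 3 fell (E2F3, CCNE1 and E2F8) and 49 did not pass an adjusted p of 0.05. That is 7.55% of the members, against 13.4% of protein coding genes and 11.2% of all genes tested. Of all genes tested, 6.09% rose and 5.09% fell. The median log2 fold change of the members, vitamin C over control, was -0.02, against 0.00 over all genes, and the members ran from -0.47 to 0.20. The fold change lay above 0 for 25 members and below 0 for 28. The median size of the log2 fold change, sign set aside, was 0.0869 over the members, 0.113 over protein coding genes and 0.131 over all genes. Median levels were 73.8, 27.4 and 14.5 CPM in the same order, so these sets differ in level too.

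**Figure D1:**
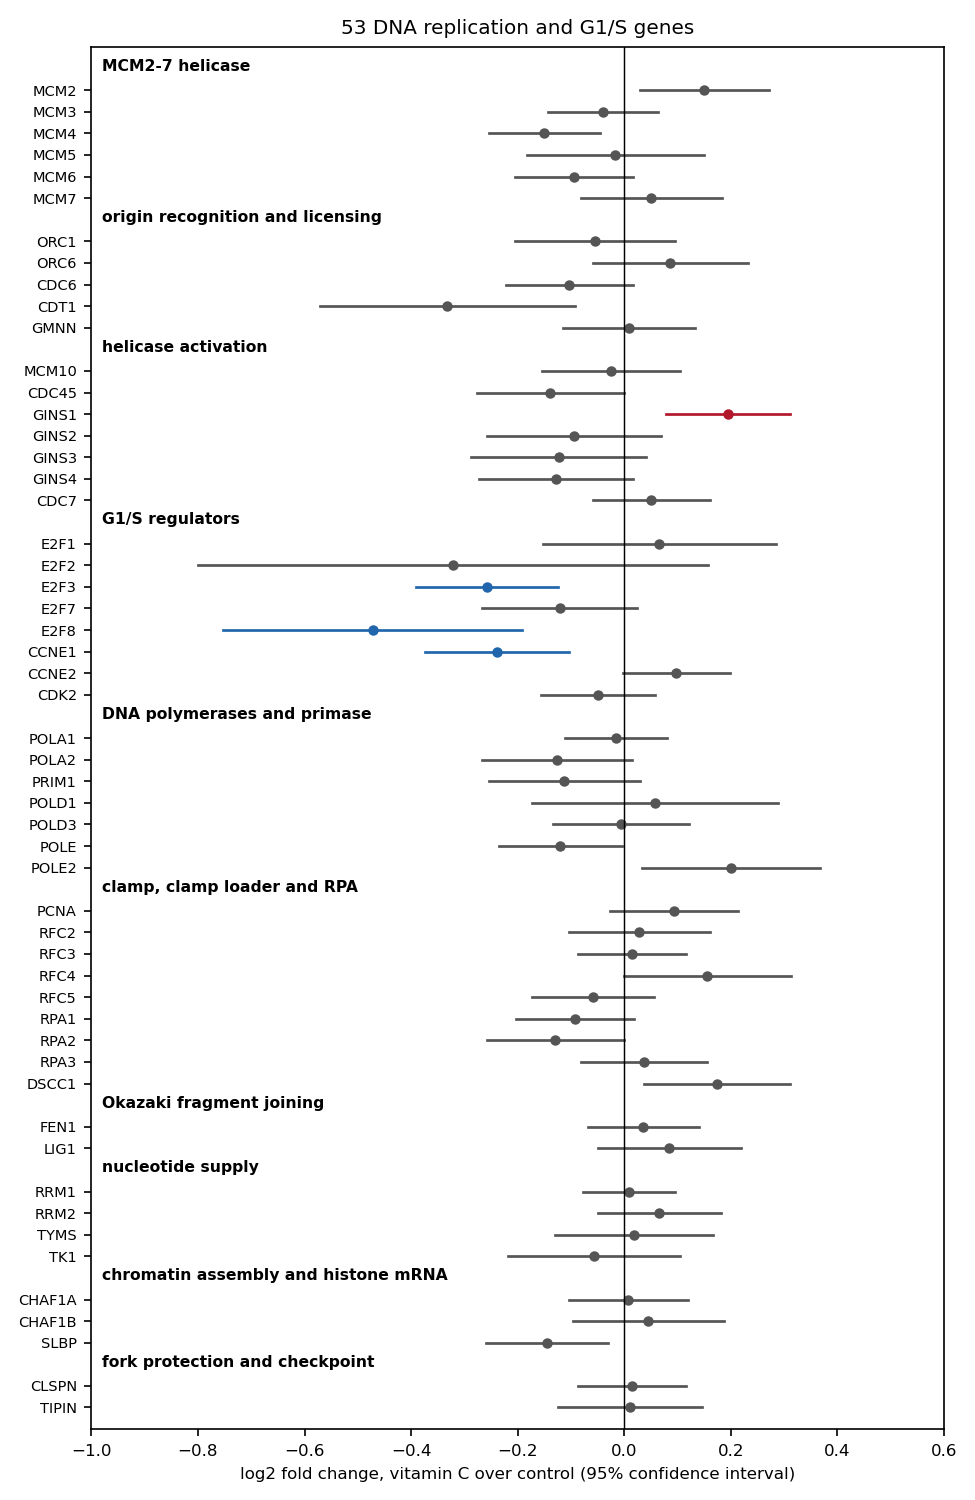
Log2 fold change of each of the 53 genes, vitamin C over control, with its 95% confidence interval from edgeR, grouped by role; red marks the gene that rose, blue those that fell and grey those that did not pass the test. Most points lie within 0.2 of 0, and the genes that fell are all in the group of G1/S regulators.

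The precision of these values was high enough to bound most members. The standard error of the log2 fold change ran from 0.0398 to 0.222 over the members, with a median of 0.0615, against 0.0929 over all genes. The members were well expressed, with mean levels from 2.11 to 542 CPM and a median of 73.8 CPM. For 36 of the 53 members (67.9%), the 95% confidence interval lay wholly within a 1.2-fold change in either direction, against 34.0% of all genes. Within a 1.25-fold change lay 47 members, and the 6 that reached beyond it were E2F2, E2F3, E2F8, CCNE1, CDT1 and POLE2. The intervals of E2F2 and E2F8 alone reached beyond a 1.5-fold change. Those of POLA1, RRM1, RFC3, CLSPN, CHAF1A, POLD3 and GMNN, 7 members in all, lay within 1.1-fold.

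**Figure D2:**
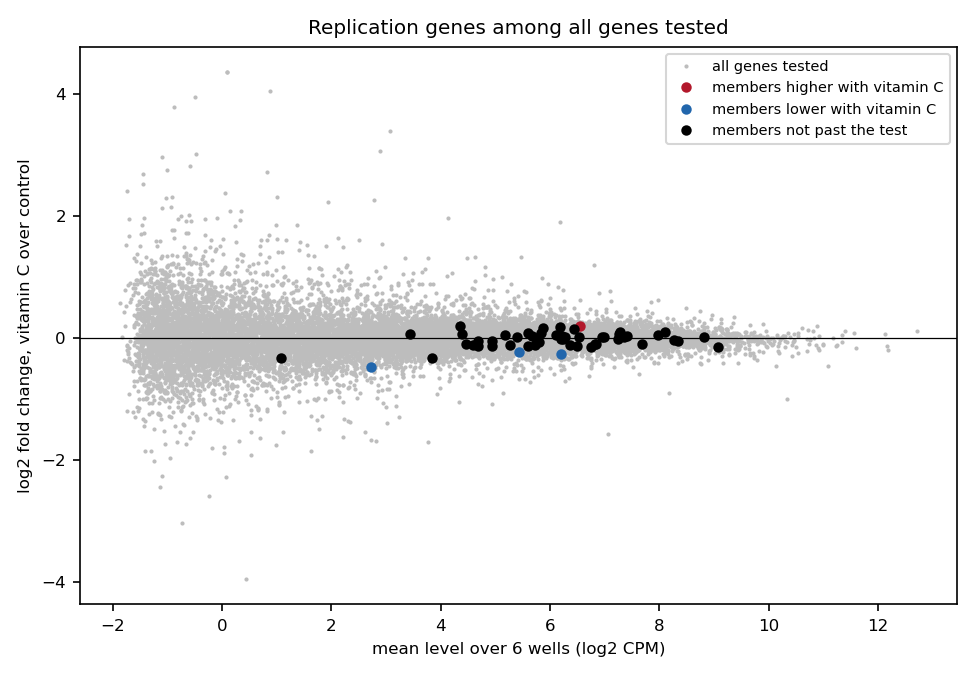
Log2 fold change against mean level (log2 CPM over 6 wells) for all 16353 genes tested (grey), with the 53 replication genes in black, red (higher with vitamin C) and blue (lower with vitamin C). The members sit at the middle and high levels of the plot and within -0.47 to 0.20 on the vertical axis, while other genes reach 4.35 and -3.94.

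The promoters of the called members are given here because E2F factors are the shared regulators of this group. RefSeq promoter windows of GRCh38.p14, from 250 bases before to 50 bases after a gene start, were matched for 43 of the 53 members. Of the called members, E2F3, CCNE1 and GINS1 have a window, and E2F8 is named only. MCM6, chosen after the words had been counted, is added as the member with the most E2F words. Sequences read 5′ to 3′ on the strand of the gene, and capitals mark E2F words, that is TTTCCCGC, TTTGGCGC, TTTGCCGC or TTTCGCGC on either strand. The window of E2F3 is at chr6:20401629-20401928 on the plus strand, that of CCNE1 at chr19:29811741-29812040 on the plus strand, that of GINS1 at chr20:25407423-25407722 on the plus strand and that of MCM6 at chr2:135876394-135876693 on the minus strand.
E2F3: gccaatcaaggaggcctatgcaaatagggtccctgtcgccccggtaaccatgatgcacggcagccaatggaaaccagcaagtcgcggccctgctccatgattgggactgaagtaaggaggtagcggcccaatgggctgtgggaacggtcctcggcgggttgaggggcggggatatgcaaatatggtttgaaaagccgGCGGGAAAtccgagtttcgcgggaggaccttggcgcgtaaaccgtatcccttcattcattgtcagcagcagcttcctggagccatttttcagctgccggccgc
CCNE1: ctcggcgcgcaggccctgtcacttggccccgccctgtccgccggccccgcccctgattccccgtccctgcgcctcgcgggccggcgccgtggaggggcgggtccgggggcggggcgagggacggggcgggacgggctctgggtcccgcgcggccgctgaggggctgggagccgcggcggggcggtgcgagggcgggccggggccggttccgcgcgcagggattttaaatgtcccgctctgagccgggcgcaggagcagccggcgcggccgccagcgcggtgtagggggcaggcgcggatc
GINS1: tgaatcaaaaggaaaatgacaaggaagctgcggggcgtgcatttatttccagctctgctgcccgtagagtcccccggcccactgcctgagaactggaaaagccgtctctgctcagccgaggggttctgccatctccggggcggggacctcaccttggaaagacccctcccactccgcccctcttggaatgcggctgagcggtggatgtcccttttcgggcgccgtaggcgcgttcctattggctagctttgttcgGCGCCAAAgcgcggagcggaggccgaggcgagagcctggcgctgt
MCM6: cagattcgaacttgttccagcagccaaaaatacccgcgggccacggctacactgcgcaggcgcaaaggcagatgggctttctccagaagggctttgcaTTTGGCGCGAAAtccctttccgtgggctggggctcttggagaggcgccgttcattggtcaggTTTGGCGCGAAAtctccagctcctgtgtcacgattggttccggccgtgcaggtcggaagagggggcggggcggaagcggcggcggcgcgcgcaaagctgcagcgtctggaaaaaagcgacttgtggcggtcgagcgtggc
In E2F3, TTTCCCGC lies on the minus strand at bases 198 to 205 of the window, and a further window of this gene held no word. In GINS1, TTTGGCGC lies on the minus strand at bases 256 to 263, just after the gene start. In MCM6, a word on the plus strand and a word on the minus strand overlap in each of the capital runs, which gives 4 words. The window of CCNE1 held none of these letters. An E2F word stood in 24 of the 43 members with a window (55.8%), against 3.99% of the 27305 genes in the promoter table and 6.56% of the 10601 genes tested that have a window. CCAAT, on either strand, stood in 60.5% of the members and 43.7% of the genes tested. The CHR words TTTGAA and TTCGAA, known from promoters of mitotic genes, stood in 6.98% of the members and 16.3% of the genes tested. Members with and without an E2F word had similar medians. The median log2 fold change was 0.01 over the 24 with a word, of which 1 rose and 1 fell, and -0.02 over the 19 without, of which 1 fell. A match of letters is a description of the window and does not show that a factor binds there.

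The group of G1/S regulators held all 3 genes that fell. It pools activators and repressors of the E2F family with the cyclin E genes and CDK2. E2F3, an activator of the E2F family, had 72.4, 64.3 and 65.1 CPM in vitamin C wells 1, 2 and 3, against 76.3, 85.2 and 79.8 CPM in control wells 1, 2 and 3. The groups did not overlap, although vitamin C well 1 came near control well 1. E2F3 averaged 67.3 ± 4.46 CPM with vitamin C and 80.4 ± 4.48 CPM in control (SD, n = 3 each), a log2 fold change of -0.26 with a standard error of 0.0622 (edgeR adjusted p = 0.0177). Its gene, ENSG00000112242, lies at chr6:20401906-20493715 on the plus strand in GENCODE 29, and no other annotated gene overlaps its exons. Its promoter, printed above, is one of those with an E2F word. E2F3 missed the threshold without vitamin C well 2 (adjusted p = 0.0895), control well 2 (0.0998) or control well 3 (0.0611), with log2 fold changes between -0.31 and -0.21 over all 6 ways of leaving out a well.

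CCNE1 encodes cyclin E1, which activates CDK2 at the start of S phase. Its levels were 40.2, 42.2 and 36.9 CPM in vitamin C wells 1, 2 and 3, against 46.4, 47.9 and 46.6 CPM in control wells 1, 2 and 3. Every vitamin C well was below every control well, and the control wells lay close together. CCNE1 (ENSG00000105173, chr19:29811898-29824308) averaged 39.7 ± 2.68 CPM with vitamin C and 47.0 ± 0.829 CPM in control (SD, n = 3 each), a log2 fold change of -0.24 with a standard error of 0.0628 (edgeR adjusted p = 0.0266). The related CCNE2, which encodes cyclin E2, had 158, 157 and 167 CPM in vitamin C wells, against 151, 145 and 155 CPM in control wells. CCNE2 did not pass the test (log2 fold change 0.10, 95% confidence interval -0.00 to 0.20, adjusted p = 0.208), although its groups did not overlap, and the difference between the changes of the 2 cyclin genes was not tested. INTS8, on the opposite strand, overlaps 37.1% of the exon bases of CCNE2 together with a further gene. INTS8 averaged 142 ± 3.23 CPM with vitamin C and 138 ± 2.54 CPM in control, and no source used here says whether reads were counted by strand. CCNE1 missed the threshold without vitamin C well 1 (adjusted p = 0.0552) or any 1 of control wells 1, 2 and 3 (0.0734, 0.107 and 0.0819), with log2 fold changes between -0.28 and -0.18.

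E2F8, an atypical E2F that represses transcription late in S phase, was the least abundant gene that fell. Its levels were 5.79, 5.65 and 5.39 CPM in vitamin C wells 1, 2 and 3, against 8.50, 8.34 and 6.13 CPM in control wells 1, 2 and 3. The vitamin C wells were close together, and control well 3, the shallowest library with 99 counts of this gene, was nearest to them. E2F8 (ENSG00000129173, chr11:19224063-19241620, minus strand) averaged 5.61 ± 0.202 CPM with vitamin C and 7.66 ± 1.33 CPM in control (SD, n = 3 each). The log2 fold change was -0.47 with a standard error of 0.130 (edgeR adjusted p = 0.0331), the farthest from 0 among the members, and its 95% confidence interval ran from -0.75 to -0.19. It missed the threshold without vitamin C well 1 (adjusted p = 0.0570), vitamin C well 2 (0.0956), control well 1 (0.157) or control well 2 (0.129), with log2 fold changes between -0.58 and -0.39.

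The other E2F genes of the list did not pass the test. E2F7, the other atypical repressor, had 38.4, 38.5 and 33.7 CPM in vitamin C wells and 38.5, 41.1 and 41.2 CPM in control wells. Its log2 fold change was -0.12 (adjusted p = 0.287). E2F1, the activator best known for driving replication genes, had 10.3, 11.1 and 12.0 CPM in vitamin C wells and 11.1, 11.2 and 9.16 CPM in control wells, with overlapping groups and a log2 fold change of 0.07 (adjusted p = 0.741). E2F2, a further activator, had 1.6, 2.19 and 1.77 CPM in vitamin C wells and 2.43, 1.79 and 2.91 CPM in control wells. E2F2 rested on 37 to 101 counts per library, and its 95% confidence interval of -0.80 to 0.16 is too wide at this depth to tell a lower level from no change. CDK2, the kinase partner of cyclin E, had 314, 322 and 319 CPM in vitamin C wells and 351, 309 and 327 CPM in control wells (log2 fold change -0.05, adjusted p = 0.591). Genes on the opposite strand, among them the melanosome gene PMEL, overlap 16.8% of the 3894 exon bases of CDK2. The share of PMEL in this is small, as CDK2 overlaps only 2.28% of the 3901 exon bases of PMEL. PMEL had 138, 164 and 144 CPM in vitamin C wells and 96.7, 84.6 and 86.1 CPM in control wells, and its part in the CDK2 counts was not tested. Of the 8 regulators, 3 were called (37.5%, against 11.2% of all genes tested) and 6 had a fold change below 0 (against 50.9% of all genes), with a median log2 fold change of -0.18. Their summed level was 641 ± 1.58 CPM with vitamin C and 667 ± 17.6 CPM in control (SD, n = 3 each).

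**Figure D3:**
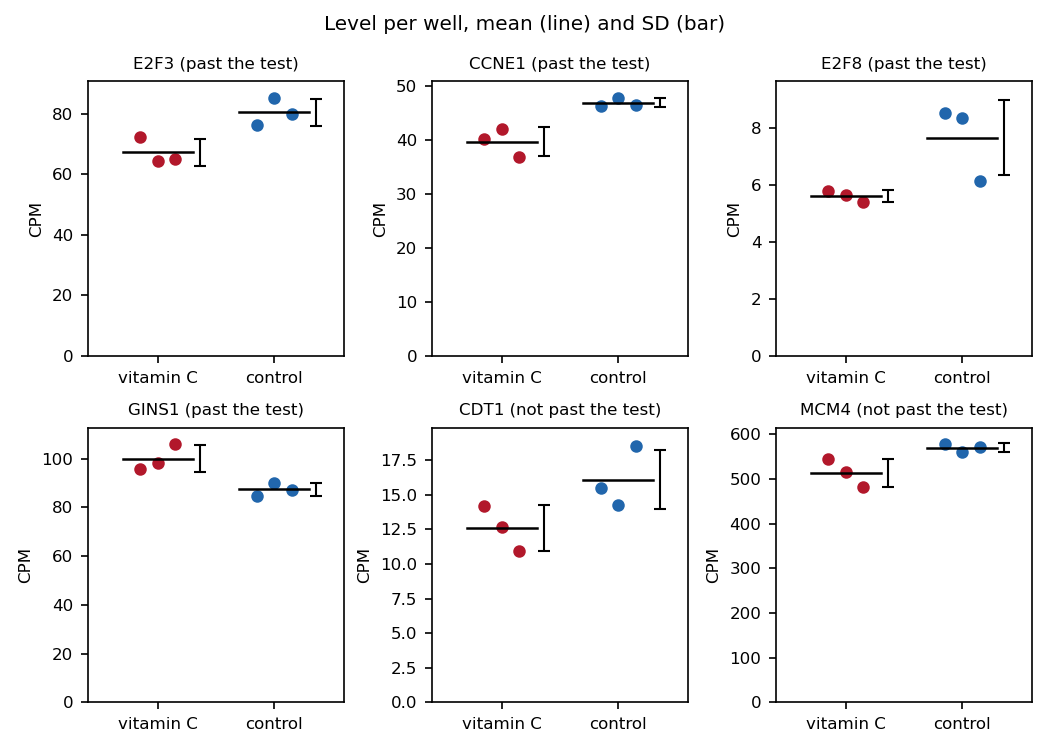
CPM per well (points) with the mean (line) and SD (bar) of 3 vitamin C wells (red) and 3 control wells (blue) for the 4 called genes and for CDT1 and MCM4, the uncalled genes with the smallest p-values; each vertical axis starts at 0. These genes were shown for their small p-values, and the groups do not overlap in any of the 6 panels. Over all genes tested, the groups did not overlap for 30.6%. Beside the level of the gene, the distance is largest in E2F8, at 5.61 CPM with vitamin C and 7.66 CPM in control.

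Genes of origin recognition and licensing were not called by edgeR's quasi-likelihood test or by DESeq2. An unadjusted p under 0.05 was reached by 1 of the 5, against 4205 of all 16353 genes tested. That 1 of the 5 was CDT1, which loads the MCM2-7 helicase together with CDC6. CDT1 had 14.2, 12.7 and 10.9 CPM in vitamin C wells 1, 2 and 3, against 15.5, 14.3 and 18.5 CPM in control wells 1, 2 and 3. The lowest control well was only just above the highest vitamin C well. Its log2 fold change was -0.33 with a 95% confidence interval of -0.57 to -0.09 (edgeR adjusted p = 0.0726). CDT1 passed the threshold with edgeR's exact test, without a filter on low counts, and without vitamin C well 1. CDC6 had 193, 187 and 218 CPM in vitamin C wells and 214, 214 and 215 CPM in control wells. In CDC6 the vitamin C wells were apart from each other, with well 3 above all control wells, and the log2 fold change was -0.10 (adjusted p = 0.267). Without vitamin C well 3, CDC6 passed the threshold. ORC1 and ORC6, subunits of the origin recognition complex, had log2 fold changes of -0.06 and 0.09. GMNN, which encodes geminin, the inhibitor of CDT1, stood at 124 ± 5.21 CPM with vitamin C and 123 ± 8.98 CPM in control (SD, n = 3 each).

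The MCM2-7 subunits had small fold changes on both sides of 0. None of the 6 passed the test with edgeR's quasi-likelihood test or DESeq2. Of the 6, 2 had an unadjusted p under 0.05, against 4205 of all 16353 genes tested. MCM4 had 544, 516 and 482 CPM in vitamin C wells 1, 2 and 3, against 579, 560 and 573 CPM in control wells 1, 2 and 3. MCM4 had the smallest p of the uncalled members (log2 fold change -0.15, 95% confidence interval -0.25 to -0.05, edgeR adjusted p = 0.0630), and it passed with limma-voom, with upper quartile scaling and without vitamin C well 1. MCM2 had 86.4, 92.2 and 95.2 CPM in vitamin C wells, against 84.7, 84.1 and 77.4 CPM in control wells. All vitamin C wells of MCM2 were above all control wells, and its log2 fold change was 0.15 (adjusted p = 0.107), while TPRA1 and a further gene on the opposite strand overlap 23.6% of its exon bases. MCM3, MCM5, MCM6 and MCM7 had log2 fold changes of -0.04, -0.02, -0.09 and 0.05. These proteins act as 1 ring of 6 subunits, and their summed level was 1352 ± 17.6 CPM with vitamin C and 1406 ± 33.5 CPM in control (SD, n = 3 each). The sums did not overlap, with 1333 to 1368 CPM in vitamin C wells and 1380 to 1444 CPM in control wells, and MCM4 itself averaged 514 CPM with vitamin C and 570 CPM in control, a distance no smaller than that of the sums.

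GINS1, a subunit of the GINS complex that joins MCM2-7 and CDC45 in the active helicase, was the gene that rose. Its levels were 95.8, 98.0 and 106 CPM in vitamin C wells 1, 2 and 3, against 84.8, 89.96 and 87.3 CPM in control wells 1, 2 and 3. All vitamin C wells were above all control wells, with well 3 the highest. GINS1 (ENSG00000101003, chr20:25407727-25452628, plus strand) had a log2 fold change of 0.19 with a standard error of 0.0538 (edgeR adjusted p = 0.0331), and no annotated gene overlaps its exons. It missed the threshold without vitamin C well 2 (adjusted p = 0.0690) or any 1 of control wells 1, 2 and 3 (0.133, 0.0728 and 0.1005), with log2 fold changes between 0.16 and 0.22. The other subunits of the same complex had fold changes of the other sign and did not pass the test. The log2 fold changes of GINS2, GINS3 and GINS4 were -0.09, -0.12 and -0.13, with adjusted p of 0.486, 0.346 and 0.256, and the difference from GINS1 was not tested. CDC45 had 50.3, 44.0 and 43.8 CPM in vitamin C wells and 51.4, 49.8 and 50.8 CPM in control wells, a log2 fold change of -0.14 (adjusted p = 0.195). MCM10, which helps to activate the helicase, and CDC7, the kinase that phosphorylates MCM proteins, had log2 fold changes of -0.02 and 0.05.

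The replicative polymerases had a median log2 fold change of -0.02, and none of the 7 genes passed edgeR's quasi-likelihood test or DESeq2. Of the 7, 2 had an unadjusted p under 0.05, against 4205 of all 16353 genes tested. POLE2, the second subunit of polymerase epsilon, had 21.7, 21.8 and 22.0 CPM in vitamin C wells, against 20.7, 17.8 and 18.1 CPM in control wells. The vitamin C wells nearly coincided, and control well 1 lay just below them. Its log2 fold change was 0.20 with a 95% confidence interval of 0.03 to 0.37 (edgeR adjusted p = 0.118). The catalytic subunit POLE lay on the other side of 0, with 77.1, 83.4 and 77.4 CPM in vitamin C wells and 89.8, 84.2 and 84.5 CPM in control wells (log2 fold change -0.12, adjusted p = 0.179). POLA1, POLA2 and PRIM1 of the polymerase alpha and primase complex, which starts each new strand, had log2 fold changes of -0.02, -0.13 and -0.11. POLD1 and POLD3 of polymerase delta had 0.06 and -0.01 on the same scale. A gene on the same strand overlaps 35.1% of the exon bases of POLA2, and how reads in shared bases were counted is not given in the sources used.

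The sliding clamp, its loaders and RPA lay on both sides of 0. PCNA encodes the clamp that holds the polymerases on DNA and had the highest level per length of all members. PCNA had 275, 267 and 311 CPM in vitamin C wells 1, 2 and 3, against 272, 260 and 267 CPM in control wells 1, 2 and 3. Vitamin C well 3 stood apart from the other 5 wells, which overlapped (log2 fold change 0.09, 95% confidence interval -0.03 to 0.21, edgeR adjusted p = 0.318). DSCC1, part of an alternative clamp loader that acts in sister chromatid cohesion, had 82.9, 77.4 and 71.7 CPM in vitamin C wells, against 71.6, 64.4 and 69.8 CPM in control wells. Its groups touched without overlapping, the log2 fold change was 0.17 (adjusted p = 0.10), and it passed the threshold without vitamin C well 3. The loader subunits RFC2, RFC3, RFC4 and RFC5 had log2 fold changes of 0.03, 0.01, 0.16 and -0.06. The subunits of RPA, which coats single-stranded DNA, had -0.09 for RPA1, -0.13 for RPA2 and 0.04 for RPA3. Of these 9 genes, 2 had an unadjusted p under 0.05, against 4205 of all 16353 genes tested. None of the 9 passed edgeR's quasi-likelihood test or DESeq2.

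The genes of Okazaki fragment joining and nucleotide supply lay close to their control levels. FEN1 and LIG1, a nuclease and a ligase that finish the lagging strand, had log2 fold changes of 0.04 and 0.09. RRM1, the large subunit of ribonucleotide reductase, had 456, 449 and 455 CPM in vitamin C wells and 451, 446 and 455 CPM in control wells. These 6 values nearly coincided, and the 95% confidence interval of the log2 fold change ran from -0.08 to 0.09, with the smallest standard error of all members. RRM2, the small subunit that limits the enzyme in S phase, averaged 158 ± 10.8 CPM with vitamin C and 151 ± 3.68 CPM in control (SD, n = 3 each). TYMS, which makes thymidylate, and TK1, the salvage kinase for thymidine, had log2 fold changes of 0.02 and -0.06. TYMS shares 46.6% of its exon bases with ENOSF1 and TYMSOS on the opposite strand. How reads in shared bases were counted is not given in the sources used.

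Chromatin assembly and fork protection showed 1 gene with an unadjusted p under 0.05, against 4205 of all 16353 genes tested. SLBP, which binds the ends of replication-dependent histone mRNA, had 103, 105 and 100.0 CPM in vitamin C wells, against 113, 108 and 121 CPM in control wells. All vitamin C wells of SLBP were below all control wells, with a log2 fold change of -0.14 (95% confidence interval -0.26 to -0.03, edgeR adjusted p = 0.102). CHAF1A and CHAF1B, subunits of the chromatin assembly factor that deposits histones behind the fork, had 0.01 and 0.05 on the log2 scale. CLSPN, the claspin checkpoint mediator, and TIPIN, of the fork protection complex, had 0.01 each.

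Across all members, the wells of the groups did not overlap for 15 genes, 6 of them higher and 9 lower with vitamin C. Over all genes tested this held for 30.6%, so that the share among the members is not above the background. An unadjusted p under 0.05 was reached by 12 members and by 4205 of all 16353 genes tested, so this share too is not above the background. The summed level of the 53 members was 5510, 5384 and 5567 CPM in vitamin C wells 1, 2 and 3, against 5659, 5480 and 5538 CPM in control wells 1, 2 and 3. Both the lowest and the second highest sum belonged to vitamin C wells, and the ranges overlapped. The means were 5487 ± 93.7 CPM with vitamin C and 5559 ± 91.2 CPM in control (SD, n = 3 each). Within the groups, vitamin C well 3 was the highest of its group for 26 members and control well 1 for 28.

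**Figure D4:**
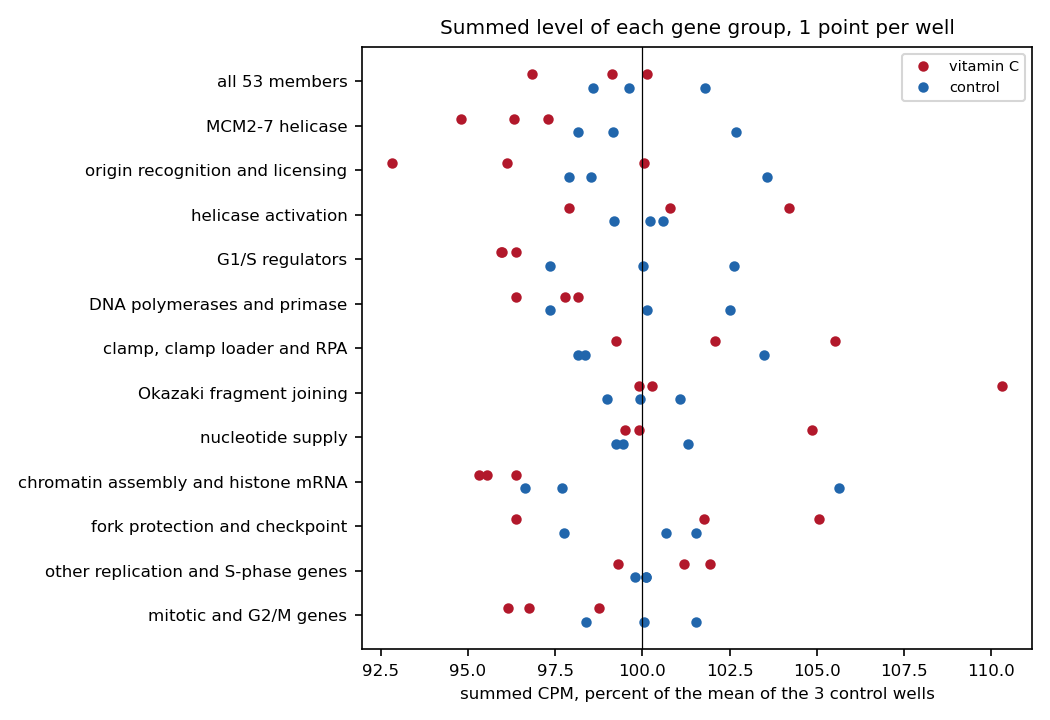
Summed CPM of each gene group in each well (red, vitamin C; blue, control), as a percent of the mean of the 3 control wells; the axis does not start at 0. The wells of the 53 members together lie between 96.8 and 101.8% of the control mean. The sums of the MCM2-7 helicase, of the G1/S regulators and of chromatin assembly and histone mRNA do not overlap between groups. Those of the other gene groups shown overlap. In chromatin assembly and histone mRNA, the highest vitamin C well had 218.8 CPM and the lowest control well 219.4 CPM. SLBP alone averaged 102.8 CPM with vitamin C and 113.9 CPM in control there.

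Per kilobase of exon, the members stood high among the genes of A2058. Their median level over the 6 wells was 17.7 CPM per kilobase, against 3.48 CPM per kilobase over the 16240 genes tested with a length, and 51 of the 53 members were above that median. PCNA led with 193 CPM per kilobase with vitamin C and 181 in control, above 99.2% of the genes tested. RRM1 followed with 109 and 108 CPM per kilobase, and MCM3 with 83.4 and 85.6. At the low end were CDT1 with 3.78 CPM per kilobase with vitamin C and 4.83 in control, POLD1 with 4.36 and 4.13, E2F8 with 1.36 and 1.85, and E2F2 with 0.340 and 0.435. Of the genes that fell, E2F8 was below the median of all genes tested, while CCNE1 (15.6 and 18.4 CPM per kilobase) and E2F3 (13.0 and 15.6) were well above it.

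A list of 58 further genes of replication and S phase, chosen for their function, held 8 called genes (13.8%). That share is near the background, with 11.2% of all genes tested and 13.4% of protein coding genes called. Of the 8, 5 rose and 3 fell, and the list had a median log2 fold change of 0.01. The genes that rose do not share a single step. RRM2B, the p53-inducible small subunit of ribonucleotide reductase, had 105, 98.0 and 94.0 CPM in vitamin C wells, against 84.9, 81.7 and 83.0 CPM in control wells (log2 fold change 0.25, edgeR adjusted p = 0.00862). DCK, a salvage kinase for deoxycytidine, rose by 0.18 on the log2 scale, and PRIM2, the large subunit of primase, by 0.24, against -0.11 for the uncalled PRIM1. The histone chaperone ASF1A rose by 0.24 and MTBP, which acts in origin firing, by 0.22. Of the genes that fell, CDCA7 had 39.4, 45.0 and 43.7 CPM in vitamin C wells, against 53.8, 49.7 and 49.4 CPM in control wells (log2 fold change -0.26, adjusted p = 0.0224). NASP, a histone chaperone, and ATAD5, which unloads PCNA, named after their values were seen, had log2 fold changes of -0.19 and -0.18. The summed level of the 58 genes was 5542 ± 74.8 CPM with vitamin C and 5497 ± 10.04 CPM in control (SD, n = 3 each). Without control well 1 or without control well 2, 1 gene of this list stayed past the threshold, RRM2B in the one case and ASF1A in the other. The count was 2 without control well 3, and 4 without vitamin C well 1 or without vitamin C well 2.

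Among 26 E2F partners, pocket proteins, cyclins and inhibitors of cyclin-dependent kinases, of which 25 were tested, 3 rose and 1 fell, which is 16% of the tested genes against 11.2% of all genes tested, with a median log2 fold change of 0.04. CCND1, the cyclin that starts phosphorylation of the retinoblastoma protein, had 261, 250 and 256 CPM in vitamin C wells, against 199, 209 and 198 CPM in control wells. The groups were far apart beside their spread (log2 fold change 0.34, standard error 0.0441, edgeR adjusted p = 0.000237). RB1, which encodes the retinoblastoma protein itself, had 64.8, 60.3 and 57.9 CPM in vitamin C wells and 46.7, 54.1 and 50.4 CPM in control wells, a log2 fold change of 0.28 (adjusted p = 0.0168). CDKN2C, an inhibitor of CDK4 and CDK6, rose by 0.22 on the log2 scale, while MYBL2, an E2F target that activates late cell cycle genes, fell by 0.23. Their summed level was 2059 ± 18.4 CPM with vitamin C and 1949 ± 32.4 CPM in control (SD, n = 3 each), a sum to which CCND1 contributes 256 and 202 CPM. CCND1 stayed past the threshold under every alternative run. Without control well 1 or without control well 3 it was the only gene of this list to pass, with adjusted p of RB1 at 0.0939 and 0.0617, of CDKN2C at 0.0922 and 0.113, and of MYBL2 at 0.0685 and 0.0944. Without vitamin C well 2 or without control well 2, 2 genes of the list passed. MYBL2 also missed the threshold without vitamin C well 3 (adjusted p = 0.0527) and without a filter on low counts (0.0529).

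Mitotic and G2/M genes, 40 in all, held 2 that rose and 2 that fell (10%, against 11.2% of all genes tested and 13.4% of protein coding genes). Their median log2 fold change was -0.02, like that of the members. MKI67, the proliferation marker Ki-67, had 401, 356 and 349 CPM in vitamin C wells, against 481, 513 and 495 CPM in control wells. Its log2 fold change was -0.43 (standard error 0.0546, edgeR adjusted p = 0.000217), and the groups were well apart. CKS2, a subunit of cyclin-dependent kinases, had a log2 fold change of -0.27, while the kinase NEK2 and the kinetochore gene NDC80 rose by 0.26 and 0.18. MKI67, CKS2 and NEK2 stayed past the threshold with each well left out. Among these fits, NDC80 passed with all wells and without vitamin C well 3, with adjusted p of 0.128 and 0.0710 without vitamin C wells 1 and 2 and of 0.107, 0.138 and 0.110 without control wells 1, 2 and 3, and it missed the threshold at 0.0581 without a filter on low counts. The summed level of the list was 9574 ± 134 CPM with vitamin C and 9847 ± 155 CPM in control (SD, n = 3 each).

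The calls of the members were modest in size and depended on single wells. With each well left out in turn, between 0 and 6 members passed the threshold of edgeR's quasi-likelihood test. Leaving out control well 2 left none, while 10 members had an unadjusted p under 0.05 there. Leaving out vitamin C well 2, control well 1 or control well 3 left 1 each, which was CCNE1, E2F3 and E2F8 in that order. Leaving out vitamin C well 1 gave 4 and vitamin C well 3 gave 6. The signs of the 4 called genes held in all 6 cases.

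**Figure D5:**
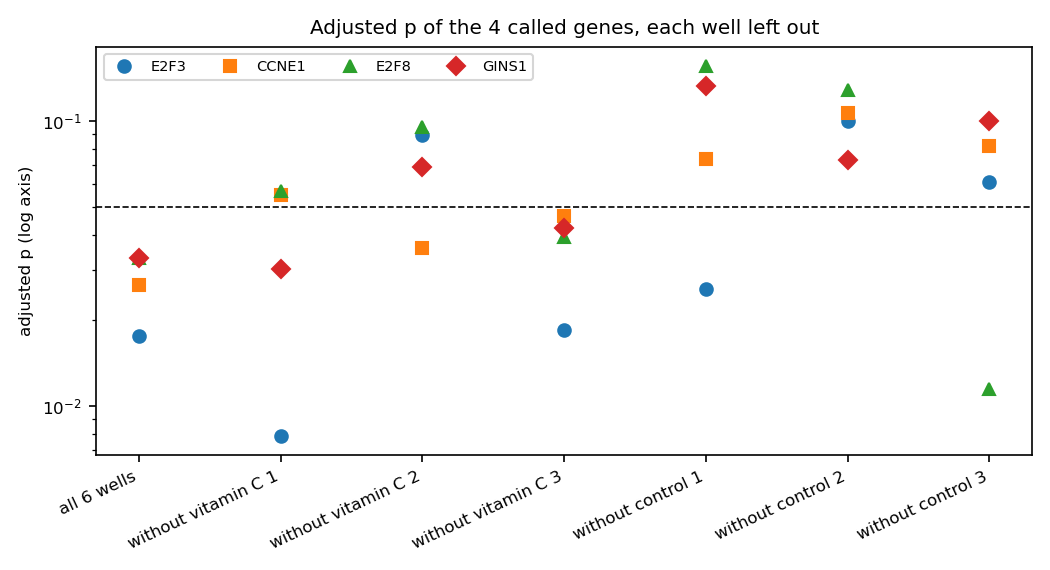
Adjusted p of E2F3, CCNE1, E2F8 and GINS1 (log axis) with all 6 wells and with each well left out, from edgeR's quasi-likelihood test; the dashed line marks 0.05. All 4 genes lie under the line with all wells and without vitamin C well 3, and all 4 lie above it without control well 2.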

How the data were processed

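RNA was extracted from A2058 wells, ribosomal RNA was depleted, and paired-end reads were sequenced. The authors aligned them with STAR and deposited counts of reads per gene from HTSeq, without normalization. The submitters' notes also name CASAVA 1.4, Trim Galore and the build hg38, and the paper names GENCODE v19. Strand in counting: not given in the sources used here. The table of all samples and the 6 single tables hold the same values. Symbols, coordinates (GRCh38) and exon lengths were taken from GENCODE 29, which holds 57055 of the 60675 ids, and promoters from RefSeq GRCh38.p14.

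The test was made with edgeR 4.0.16 in R 4.3.3 (filterByExpr, TMM, quasi-likelihood test of vitamin C against control with no further term, Benjamini-Hochberg adjustment over the 16353 genes tested, threshold 0.05). Confidence intervals are at 95%. Summed CPM and CPM per kilobase of exon were computed from the same scaling. Replicate numbers come from the labels, which name no shared day or batch. The replicates are wells of culture plates, and whether they come from separate experiments is not given in the sources used, so p-values cover only the spread of these wells, which may be technical. Alternatives were RLE, upper quartile and library size scaling, removal of mitochondrial genes and abundant small RNAs, other filters, DESeq2 1.42.0, edgeR's exact test, limma-voom (limma 3.58.1), the replicate number as a block, each well left out and other thresholds.

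The members and the other lists were chosen with earlier results of these data known. All members could be named. Full values by well were given for called members and for the highest and lowest level per length, and otherwise for up to 6 uncalled members and up to 6 called genes of each other list with the smallest p; further values by well were added for members of one complex or family. Libraries shared sequencing lanes, but which library ran on which lane was not found in the sources used, so no lane effect was tested. The value of 1 marker gene is not reported here.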

Additional observations from a re-analysis of the deposited data

How the results depend on the processing

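E2F3, CCNE1, E2F8 and GINS1 stayed past the threshold under RLE, upper quartile and library size scaling, removal of mitochondrial genes and small RNAs, no filter, a filter of 10 counts in every library, DESeq2, edgeR's exact test and limma-voom, which called 4 or 5 members each. At an adjusted p under 0.01, 795 genes, 0 members (12 at an unadjusted p under 0.05, by edgeR), 1 further replication or S-phase gene and 1 E2F partner passed. Of the mitotic genes, MKI67, CKS2 and NEK2 passed at 0.01. At 0.1, 2763 genes, 6 members (with MCM4 and CDT1 added) and 7 mitotic genes passed. With each well left out in turn, the calls ran from 964 to 2095 over all genes, from 0 to 6 over the members, from 1 to 7 over the further replication and S-phase genes, from 3 to 4 over the mitotic genes and from 1 to 4 over the E2F partners, and the median log2 fold change of the members ran from -0.029 to 0.0064. Fewer wells remain in each of these fits. With library size scaling, 1101 genes were higher and 752 lower, against 996 and 833 with TMM, and with upper quartile scaling 892 and 963. No gene named by the rule changed direction under any alternative.

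With 3 wells per group, the correlations cannot decide whether the replicate numbers shared between groups pair the wells. The correlation of deviations from the group means was 0.123, -0.0237 and 0.0915 for numbers 1, 2 and 3, and vitamin C wells 1 and 3, not 2, correlated best with the control well of their own number. With the replicate number as a block, 1913 genes and 4 members passed, against 1829 genes and 4 members without it. The median of the members was -0.01 with the block. Depth limited E2F2 most among the members, with 37 to 101 counts per library and the largest standard error, 0.222.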
